A study of Mus musculus with 9 samples.

Results

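The cytosolic ribosomal protein genes were examined in intestinal epithelial cells (IECs) after activation of natural killer T (NKT) cells. Members were the protein-coding genes of the deposited count table whose symbol starts with Rpl or Rps and a digit, together with Rpsa, Rplp0 to Rplp2 and Fau. Rps6k kinases and symbols that end as pseudogenes do were left out. The rule found 90 genes among 29288 in the table. Of these, 78 encode the standard proteins of the ribosome, 32 in the 40S and 46 in the 60S subunit, and 12 are paralogues, retrotransposed copies or, in the case of Rps19bp1, a binding protein with a matching symbol. Rpl39l, whose symbol has the same form, was not analysed here.

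The libraries came from 9 female wild-type C57BL/6J mice, 1 mouse per library. Crypts were taken from the proximal small intestine, and IECs were sorted from them as live EpCAM+ Ter119- CD31- CD45- cells. The 3 control mice received PBS by the intraperitoneal route and are labelled 18 h, 3 mice were sampled 18 h after 2 µg of α-galactosylceramide (18h-αGal), a glycolipid antigen that NKT cells recognise on CD1d, and 3 mice 72 h after the same dose (72h-αGal). No PBS group at 72 h was used here, so at 72 h the effect of the glycolipid and of the time of sampling cannot be told apart. The mice were young adults per the methods, and the EpCAM gate mixes stem, proliferating and differentiated crypt cells.

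Total counts ranged from 8887861 to 32722293 per library, and the smallest library was control replicate 3. The 7 epithelial markers summed to between 4724 and 5974 CPM (counts scaled to the library total) in every library, whereas the 11 immune markers in the table summed to at most 11.2 CPM, the 3 endothelial markers to between 0.649 and 2.70 CPM and the 5 stromal markers to between 0.104 and 2.81 CPM. Erythroid markers were represented by 1 gene, at 0.900 CPM or more and below the immune sum in each library. Endothelial sums did not overlap between control (2.11 to 2.70 CPM) and 18h-αGal (0.649 to 1.003 CPM), nor did stromal sums (1.86 to 2.81 against 0.292 to 0.669 CPM). Their part in the results was not tested.

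Each cytosolic ribosome holds a copy of nearly every protein of both subunits, so their genes are transcribed at high and roughly matched levels in dividing cells. Most of their mRNAs begin with a run of pyrimidines (the terminal oligopyrimidine, or TOP, motif), through which mTORC1 and Larp1 set how strongly they are translated. This control acts mainly on translation, so a count table reports on the amount of message and not on ribosome output. In the crypt, stem and transit-amplifying cells carry the heaviest biosynthetic load, and enterocytes leave the crypt as they differentiate.

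Windows around the annotated transcription start are shown for the members on which the comparisons turn, with Rps27 beside its paralogue Rps27l and Rplp0 as the member with the highest level. Each runs from 60 bases before the start to 20 bases from it (RefSeq, GRCm38.p6, 5′ to 3′ on the strand of the gene). Capitals begin at the C nearest to the start that opens at least 5 pyrimidines in a row, where such a C lay within 20 bases. Pyrimidines directly before that C are not marked, so a longer run may begin ahead of the capitals.
Rps27l, chr9:66946026-66946105, plus strand: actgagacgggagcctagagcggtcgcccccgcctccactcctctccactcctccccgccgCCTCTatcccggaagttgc
Rps27, chr3:90213629-90213708, minus strand: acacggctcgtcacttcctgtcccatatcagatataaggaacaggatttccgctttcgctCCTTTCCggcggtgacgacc
Rpl27, chr11:101442185-101442264, plus strand: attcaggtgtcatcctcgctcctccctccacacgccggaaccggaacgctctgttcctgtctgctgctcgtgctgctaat
Rpl7l1, chr17:46782637-46782716, minus strand: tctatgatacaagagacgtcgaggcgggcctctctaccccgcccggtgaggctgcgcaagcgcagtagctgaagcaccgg
Rplp0, chr5:115559407-115559486, plus strand: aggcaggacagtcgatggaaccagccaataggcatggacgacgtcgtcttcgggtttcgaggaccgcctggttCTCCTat

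The RefSeq table of promoters (250 bases before to 50 after a start) matched 67 of the 90 members, 58 of them core. A pyrimidine run placed as above stood at an annotated start of 47 of the 58 core genes (81.0%), against 53.3% of all 27025 genes in the table. The letters CCGGAAG, read on both strands, occurred in 24 of 58 core promoters (41.4%, against 9.93% of all), CTTTCC in 29 (50% against 29.3%), GGGCGG in 36 (62.1% against 38.2%) and AAGATGG in 10 (17.2% against 7.28%). TATAAA was found in 6 (10.3% against 15.7%). CTTTCC can fall inside a pyrimidine run, so these counts overlap. The stretch marked in Rps27 began at the annotated start itself, with further pyrimidines directly before it. The Rps27l run began 1 base after its start. The Rpl27 and Rpl7l1 windows held such runs only farther than 20 bases from the start. RefSeq also gives a start of Rps27l farther downstream, where the nearest run began 20 bases after the start, just past the end of the window (chr9:66946353-66946432).

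Members differed widely in level. Per kilobase of reference mRNA, the median CPM over the 9 libraries was highest for Rplp0, the stalk protein often used as a reference gene (821 CPM per kb), followed by Rpsa, which is also a laminin-binding protein (817), Rps2 (618), Rpl41 (594) and Rps3a1 (549). The ranges of these 5 over libraries all overlapped. Genes were not compared within single libraries, so this overlap does not decide their order. Per kilobase of coding sequence, Rpl41, whose coding sequence is very short, came first at 3121, while Rplp0 had 1146. The core members had a median of 134 CPM per kb of mRNA and 247 CPM per kb of coding sequence.

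The lowest levels per length belonged to the paralogues Rpl10l (0 in 8 of the 9 libraries), Rpl3l (0.160 CPM per kb of mRNA), Rpl27rt (0.223), Rpl36al (0.509) and Rps23rg1 (1.26). Among core members, Rps10, Rpl24 and Rpl13a stood apart with 3.21, 4.77 and 7.68 CPM, while every other core gene had at least 13.4 CPM. These 3, and the paralogue Rpl36al, were the members whose exons overlapped another annotated gene by 100 bases or more on the same strand, small RNA genes aside. None of those 4 overlapping genes had a row in the count table. Whether reads in the overlap were assigned, dropped or absent was not tested.

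Reads of this family are also hard to place, because processed pseudogenes carry near-copies of the mRNAs. In the median core gene, 62.0% of the 100-base words of the mRNA that touch the coding sequence occur exactly elsewhere in GRCm39. The range was 0% to 93.9%, and 48 of 78 core members had more than 50% of such words. Pseudogenes were found by symbol, as genes with a symbol of this family that end as pseudogenes do or are annotated as such. The table held 175 of these, which took 0.0420% to 0.0549% of the counts of a library. Pseudogenes under other symbols were not counted, so the share of the whole family of copies is not known. In 3 of 170 pseudogenes with a named parent in the table the pseudogene had the higher level, such as Rps10-ps2 with 61.5 CPM beside Rps10 with 3.21. Across the 78 core genes, level per coding length and the share of words found elsewhere had a Spearman rho of 0.00247, a description over genes that share libraries and depth.

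**Figure D1:**
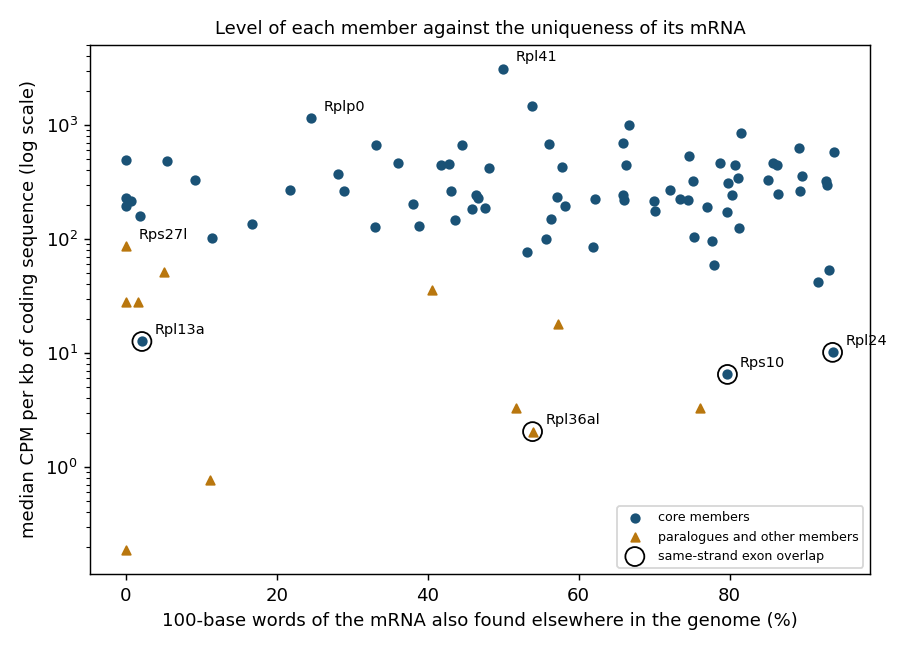
Median CPM per kilobase of coding sequence (log axis) against the percentage of 100-base words of the mRNA that occur elsewhere in GRCm39, 1 point per member, without Rpl10l, whose median was 0. Circles mark members with a same-strand exon overlap, and the 3 core genes among them lie below every other core member.

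As a group, the members took a similar share of counts in all groups. The share was 1.59%, 1.74% and 1.24% in control replicates 1 to 3, 1.44%, 1.55% and 1.23% in 18h-αGal, and 1.57%, 1.34% and 1.69% in 72h-αGal. The groups overlapped. The mean was 1.52% ± 0.254 (SD, n = 3) in control, 1.41% ± 0.164 in 18h-αGal and 1.53% ± 0.178 in 72h-αGal, so the differences between groups were smaller than the spread between mice. In a bulk sample, fewer cells with many ribosomes and less ribosomal message per cell cannot be told apart.

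Within groups, the members moved together from mouse to mouse. Deviations of log2 CPM from each gene's mean over the 9 libraries had medians over the 88 members that passed the low-count filter of 0.04, 0.16 and -0.19 in control replicates 1 to 3. The medians were 0.01, 0.06 and -0.12 in 18h-αGal and 0.08, -0.15 and 0.10 in 72h-αGal. Control replicate 3 was the lowest of its group in 76 of 88 members (86.4%, against 41.1% of all genes tested), 18h-αGal replicate 3 in 59 (67.0% against 36.4%) and 72h-αGal replicate 2 in 73 (83.0% against 32.8%). The 40S and 60S members gave the same order in each group, with 40S medians of -0.20, -0.18 and -0.14 and 60S medians of -0.19, -0.14 and -0.16 in those 3 libraries.

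Some marker sums for cell types varied with this order. The 11 enterocyte markers summed to 12690, 9097 and 21430 CPM in control replicates 1 to 3, to 13160, 11040 and 16720 CPM in 18h-αGal and to 8713, 11010 and 5981 CPM in 72h-αGal. Within each group, the library with the lowest share of ribosomal protein counts had the highest enterocyte sum, and the library with the highest share had the lowest. The 8 stem cell markers summed to 3780, 4746 and 2161 CPM in control, 2202, 1693 and 651 CPM in 18h-αGal and 3676, 3032 and 5134 CPM in 72h-αGal, and were lowest in those same 3 libraries. In 18h-αGal the highest stem cell sum was in replicate 1, while the highest share of ribosomal protein counts was in replicate 2. The part of cell makeup in the between-mouse order was not tested.

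Some marker sums also differed between groups. The 7 enteroendocrine markers summed to 443 to 512 CPM in control, 592 to 904 CPM in 18h-αGal and 203 to 282 CPM in 72h-αGal, with no overlap between any of these groups. Stem cell sums and enterocyte sums did not overlap between 18h-αGal and 72h-αGal, with stem cell sums lower and enterocyte sums higher in 18h-αGal. The part of these marker sums in the group comparisons was not tested.

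**Figure D2:**
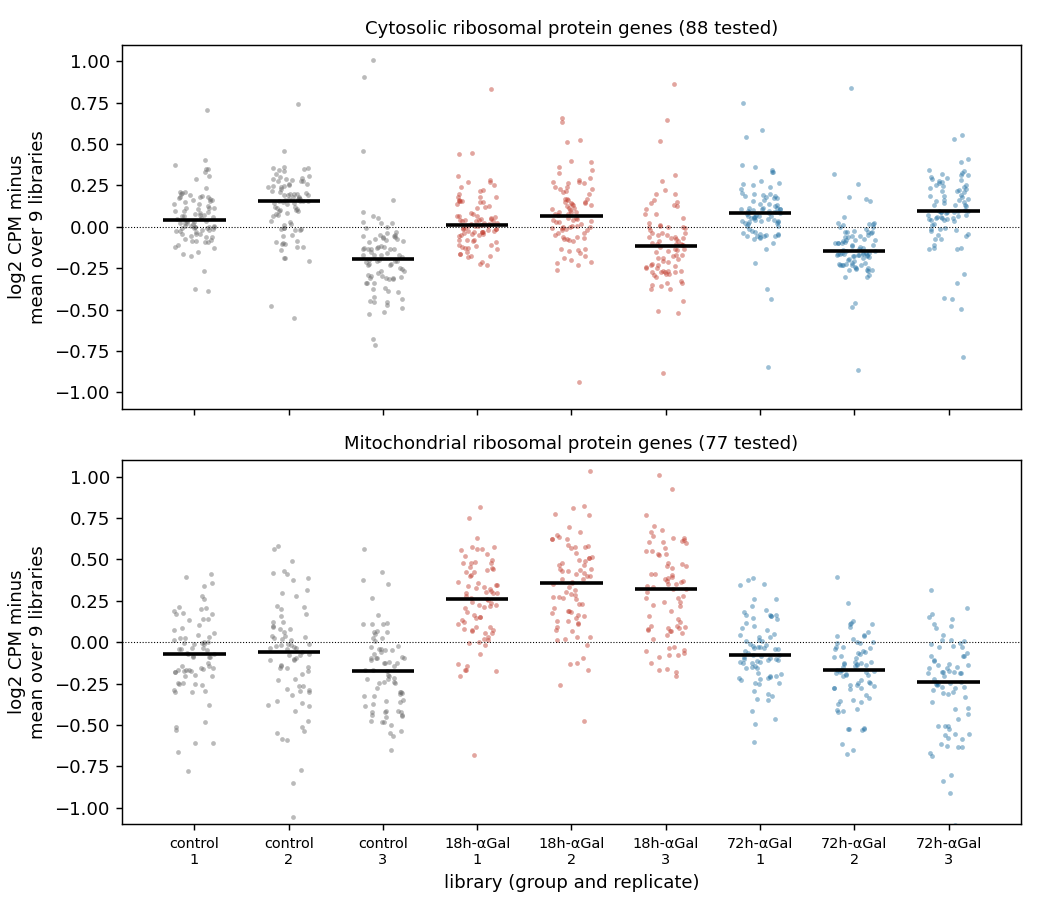
Deviation of log2 CPM from each gene's mean over the 9 libraries (vertical axis), for each library (horizontal axis), with 1 point per gene and a bar at the median. Cytosolic members vary between mice within a group, with control replicate 3 at a median of -0.19, whereas the mitochondrial ribosomal protein genes are higher in all 3 18h-αGal libraries (medians 0.26 to 0.36), and 15 points lie outside the axis.

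The first question was which members changed 18 h after NKT cell activation. In the edgeR quasi-likelihood test, with a Benjamini-Hochberg adjusted p under 0.05 as the threshold for a call, 2 of the 88 members tested (2.27%) were called, both higher, while 5.96% of all 18933 genes tested were called (3.27% higher and 2.69% lower). DESeq2 called the same 2 genes, Rps27l and Rpl27. Limma-trend also called 2 members, Rps27l and another that is not reported here, while Rpl27 did not pass (adjusted p = 0.0527). Of the 88 members, 12 had an unadjusted p under 0.05 (13.6%, against 20.8% of all genes). The medians of the log2 fold changes were -0.02 over members and -0.03 over all genes, and 37 members had a positive and 51 a negative value. The 40S core members had a median of -0.05 and the 60S core members of -0.03. For 82 of 88 members (93.2%) the 95% interval of the fold change lay within 2-fold in either direction, against 44.4% of all genes.

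Rps27l, a paralogue of Rps27 and known as a target of p53, had the strongest evidence. Its normalised counts were 527, 398 and 592 in control, 704, 923 and 1075 in 18h-αGal and 432, 497 and 428 in 72h-αGal. Each 18h-αGal library lay above every library of the other groups. The same held for the enteroendocrine marker sums, whose part in this was not tested. The log2 fold change at 18 h was 0.84 (SE 0.19, adjusted p = 0.0175 in edgeR), a fold of 1.79. None of its 100-base words occurs elsewhere in the genome. The call was lost with only the 6 libraries compared (adjusted p = 0.0523 in edgeR) and without control replicate 1 (0.0625), control replicate 2 (0.0707), 18h-αGal replicate 2 (0.0732) or 18h-αGal replicate 3 (0.0553).

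Rps27 itself, which encodes the 40S protein that Rps27l resembles, was singled out after its values were seen. Its normalised counts were 1188, 1721 and 1426 in control, 1058, 1193 and 1074 in 18h-αGal and 1281, 1046 and 1450 in 72h-αGal. Its log2 fold change at 18 h was -0.37 (SE 0.16), which did not pass (adjusted p = 0.192 in edgeR). The ratio of Rps27l to Rps27 counts was 0.444, 0.231 and 0.415 in control, 0.666, 0.773 and 1.001 in 18h-αGal and 0.337, 0.475 and 0.295 in 72h-αGal. These ratios did not overlap between 18h-αGal and the other groups, and are given as a description.

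Rpl27, a 60S protein gene on chromosome 11, was the other member that rose. Its normalised counts were 1629, 1496 and 1443 in control, 1938, 2217 and 2006 in 18h-αGal and 1868, 1566 and 1558 in 72h-αGal. The control and 18h-αGal libraries did not overlap. The log2 fold change was 0.44 (SE 0.12, adjusted p = 0.0444 in edgeR), and 70.0% of its words occur elsewhere. The call held under 4 of 20 alternatives, and without any single library of the 9 it did not pass, with adjusted p between 0.0551 and 0.182 in edgeR.

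Other members with a small p did not pass. Rpl7l1, a paralogue of the 60S gene Rpl7, had 722, 712 and 506 normalised counts in control, 972, 1118 and 785 in 18h-αGal and 695, 600 and 561 in 72h-αGal. Its log2 fold change at 18 h was 0.57 (SE 0.18, adjusted p = 0.0822 in edgeR, or 0.0407 without 18h-αGal replicate 3). Rpl35 followed with 0.38 (adjusted p = 0.108) and Rpl41 with 0.37 (adjusted p = 0.121), both encoding 60S proteins. In 12 members (13.6%) the control and 18h-αGal libraries did not overlap, against 23.8% of all genes tested.

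**Figure D3:**
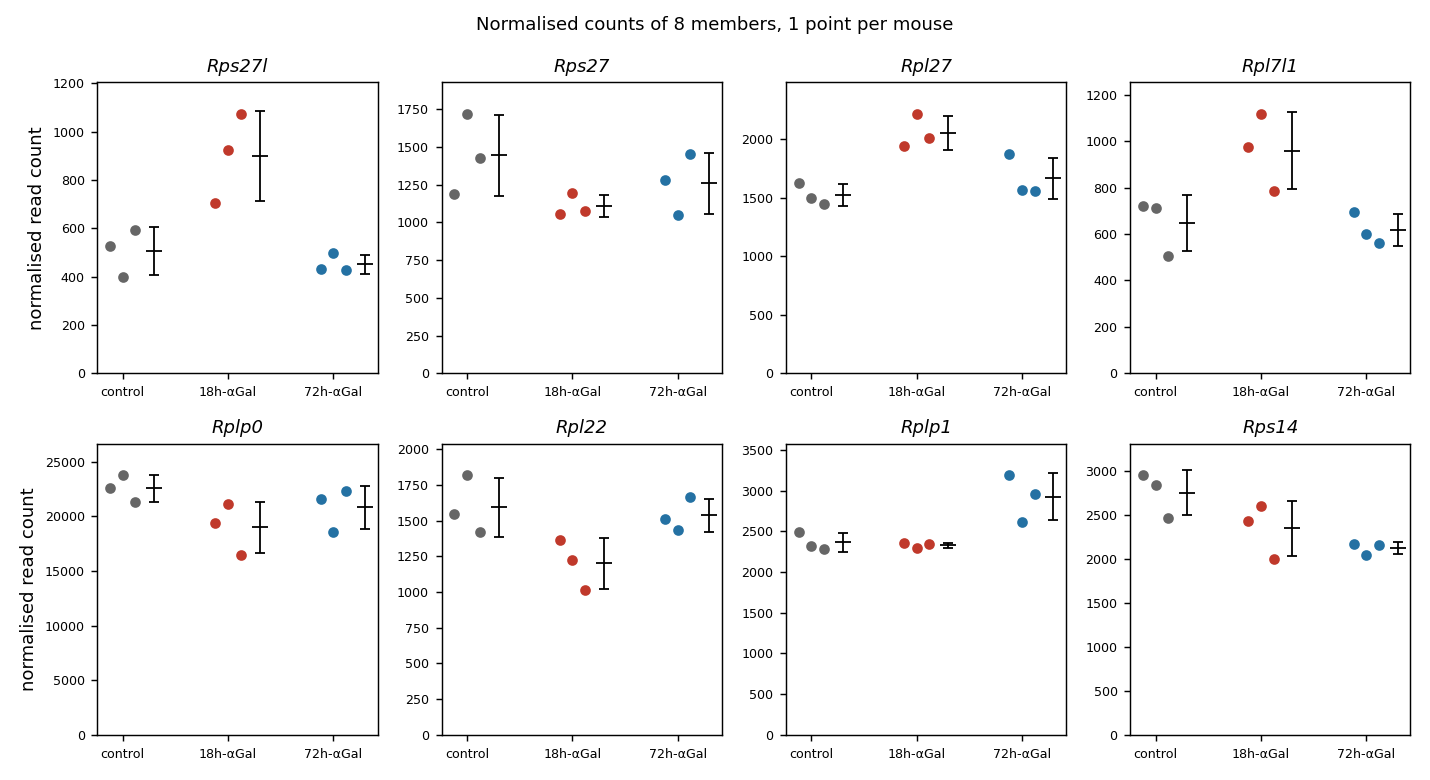
Normalised read counts (vertical axis, from 0) of 8 members in control, 18h-αGal and 72h-αGal, 1 point per mouse, with the mean and SD of 3 mice beside the points. All 3 18h-αGal points of Rps27l (704 to 1075) lie above all other points, and those of Rplp0 lie below the control points.

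The members with well-known roles did not pass at 18 h. Rplp0 had 22563, 23782 and 21287 normalised counts in control, 19350, 21115 and 16466 in 18h-αGal and 21591, 18524 and 22295 in 72h-αGal. Its control and 18h-αGal libraries did not overlap, with a log2 fold change of -0.24 (SE 0.12, adjusted p = 0.276 in edgeR). Rpsa had log2 fold changes of -0.12 at 18 h and -0.11 at 72 h, each with an SE of 0.13. Rps6, the 40S substrate of S6 kinases, had -0.12 and -0.04 (SE 0.14 each).

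Rpl5 and Rpl11 form a particle with 5S rRNA that can bind Mdm2. Rpl5 had log2 fold changes of -0.13 at 18 h and -0.00023 at 72 h (SE 0.14 and 0.14), and Rpl11 of 0.14 and 0.01 (SE 0.18 and 0.18). Rps19, the 40S gene best known from Diamond-Blackfan anaemia, had -0.09 and 0.13 (SE 0.15 and 0.15). Rpl13a, a common reference gene, had 0.02 and 0.34, with a larger SE (0.35 and 0.35) at its low counts. Rack1, a scaffold on the 40S subunit that the symbol rule leaves out, had -0.22 and -0.08 (SE 0.13 each).

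The remaining paralogues had few counts or no passing change. Rpl22l1, a paralogue of the 60S gene Rpl22, had 251, 295 and 207 normalised counts in control and 312, 241 and 272 in 18h-αGal, with overlap. Its log2 fold changes were 0.13 at 18 h and 0.20 at 72 h, while Rpl22 had -0.40 at 18 h (SE 0.15, adjusted p = 0.124 in edgeR). Rps4l had 415, 422 and 559 in control, 429, 429 and 471 in 18h-αGal and 386, 284 and 279 in 72h-αGal. Rps19bp1 had log2 fold changes of 0.16 and 0.02, and Rpl35rt of 0.11 and 0.35. Rps27rt, Rps23rg1, Rpl36al and Rpl3l had at most 47.5 normalised counts in any library, and Rpl10l and Rpl27rt did not pass the low-count filter.

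The second question was whether members differed from control at 72 h. In edgeR, 0 of 88 members were called (4 at an unadjusted p under 0.05, 4.55% against 5.94% of all genes), and DESeq2 and limma-trend also called 0. Over all genes, 0.0264% were called, which is 5 genes. The median log2 fold change was -0.0034 over members and 0.0022 over all genes, with 43 members positive and 45 negative. For 82 of 88 members the 95% interval lay within 2-fold.

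Rplp1, a stalk protein gene, had the smallest p at 72 h. Its normalised counts were 2495, 2321 and 2278 in control, 2355, 2290 and 2342 in 18h-αGal and 3194, 2620 and 2962 in 72h-αGal. The 72h-αGal libraries lay above all others, with a log2 fold change against control of 0.32 (SE 0.11, adjusted p = 0.810 in edgeR). Rps14, a 40S gene, had 2954, 2840 and 2463 in control and 2174, 2039 and 2158 in 72h-αGal, a log2 fold change of -0.36 (SE 0.13). Rps29 (0.41, SE 0.15) and Rps4l (-0.54, SE 0.20) shared that adjusted p of 0.810, Rpl8 had -0.29 (SE 0.14) and Rps10 had 0.83 (SE 0.44). In 4 members (4.55%) the libraries did not overlap, against 12.7% of all genes.

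The 2 αGal groups were then compared with each other. In edgeR, 2 of 88 members were called (2.27%), both lower at 72 h, against 10.2% of all genes (4.18% higher and 6.04% lower). Of the members, 11 had an unadjusted p under 0.05 (12.5%, against 24.3% of all genes), and in 16 (18.2%, against 32.8%) the groups did not overlap. Rps27l fell by 0.98 on the log2 scale (SE 0.19, adjusted p = 0.00518), and this call held under all 20 alternatives. Rpl7l1 fell by 0.63 (SE 0.18, adjusted p = 0.0415), a call that held under 12 of 20. It was lost without control replicate 1, 18h-αGal replicates 1 or 2, or any 72h-αGal library, with adjusted p between 0.0568 and 0.178 in edgeR. With all 9 libraries it was also lost when scaled by library totals (0.105) or the upper quartile (0.068). Rplp1 had 0.34 (SE 0.11, adjusted p = 0.0662) and passed with library totals (0.0398), the upper quartile (0.0281), a count of at least 10 in all libraries (0.0385) or without control replicate 3 (0.0467). The next members were Rps29 (0.39, adjusted p = 0.118), Rpl22 (0.36, adjusted p = 0.136) and Rpl27 (-0.30, adjusted p = 0.138). The medians were 0.04 over members and 0.05 over all genes. All 3 comparisons share groups, so their values are set side by side and not counted as separate support.

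**Figure D4:**
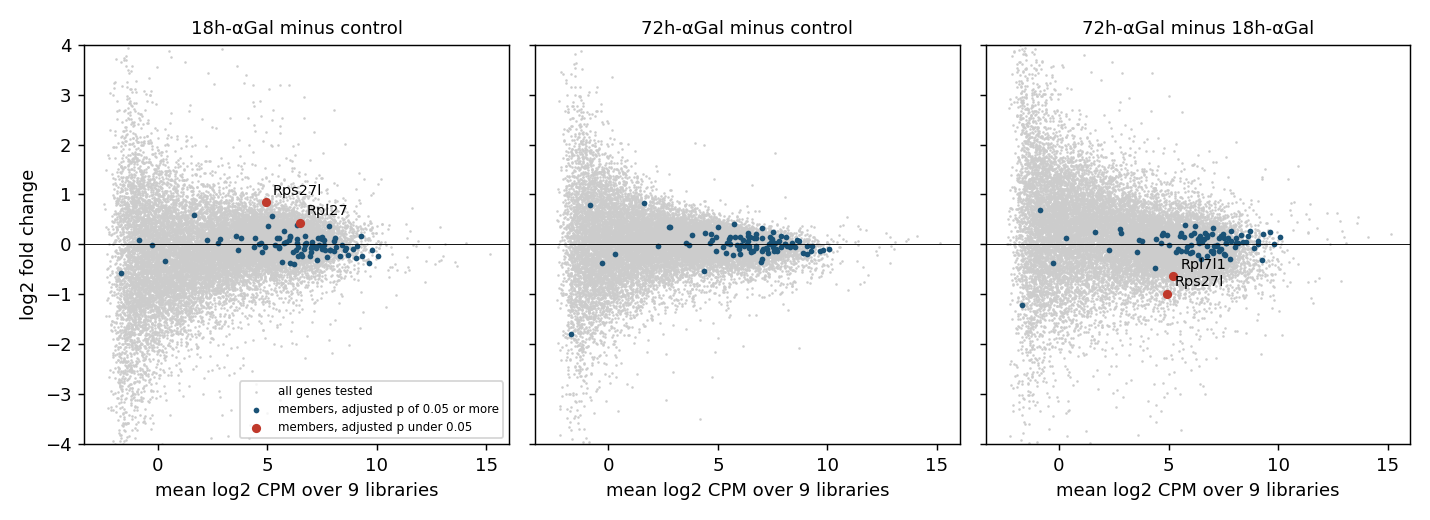
Log2 fold change against mean log2 CPM over the 9 libraries for all 18933 genes tested (grey) and the 88 members (blue, or red where the adjusted p was under 0.05), in the 3 comparisons. Members lie close to 0 at high levels, with Rps27l and Rpl27 called at 18 h, and 173, 73 and 168 genes lie outside the axis from left to right.

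Mitochondrial ribosomal proteins build the separate ribosome of the organelle from nuclear genes. At 18 h, 14 of 77 of these genes tested were called, all higher, against 5.96% of all genes (3.27% higher), and DESeq2 called 16. The count fell to 4, 6, 7 and 2 without control replicate 1, control replicate 2, 18h-αGal replicate 1 and 18h-αGal replicate 2, and to 9 without 72h-αGal replicate 1. Their median log2 fold change was 0.39, and 70 of 77 were positive. Mrpl13 had 329, 316 and 437 normalised counts in control and 665, 814 and 727 in 18h-αGal (log2 fold change 1.04, adjusted p = 0.00516 in edgeR). Mrpl20 (1.35, adjusted p = 0.0099) and Mrpl55 (1.02, adjusted p = 0.00935), both also large-subunit genes, rose too, and the call of Mrpl55 was lost without 18h-αGal replicate 2. None was called at 72 h against control in edgeR, with 4 at an unadjusted p under 0.05 and 0 called by DESeq2 or limma-trend. Over all genes tested, 0.0264% were called and 5.94% had an unadjusted p under 0.05. Against 18h-αGal, 20 of 77 were called, all lower at 72 h, against 10.2% of all genes (6.04% lower). The count was 11 and 5 without 18h-αGal replicates 1 and 2, and 10, 10 and 7 without 72h-αGal replicates 1, 2 and 3. Those called included Mrpl34 (-1.13), Mrpl16 (-0.88) and Mrpl11 (-0.83), which had the smallest p. A set of 744 protein-coding genes with an mRNA under 1000 bases left out the cytosolic members but not the mitochondrial ribosomal protein genes. It had library medians of 0.15 to 0.17 in 18h-αGal and -0.05 to -0.01 in control, and the part of mRNA length was not tested. The enteroendocrine marker sums were likewise higher in each 18h-αGal library than in the other groups, and their part was not tested. The difference between the mitochondrial and cytosolic lists was not tested as such.

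**Figure D5:**
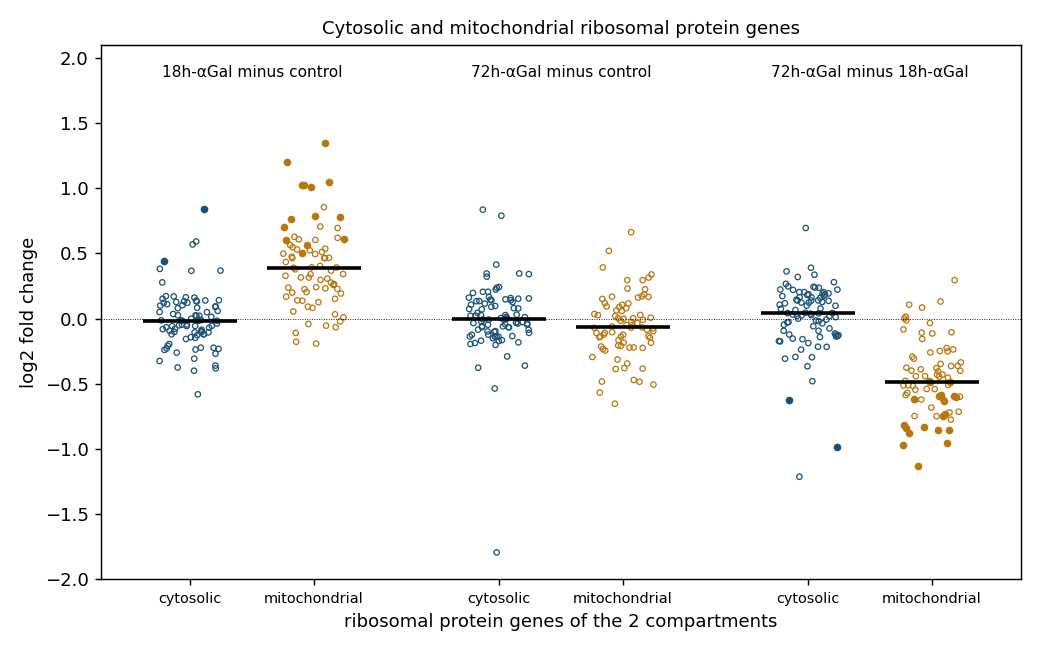
Log2 fold changes (vertical axis) of the cytosolic members (88 genes, blue) and the mitochondrial ribosomal protein genes (77, ochre) in the 3 comparisons, with filled points for an adjusted p under 0.05 and a bar at the median. At 18 h the medians were -0.02 for the cytosolic and 0.39 for the mitochondrial list.

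Genes around ribosome production were taken from lists. Of 28 TOP mRNAs that encode other translation proteins or host small RNAs, 1 was called at 18 h, against 5.96% of all genes. DESeq2 and limma-trend called 2 each. The gene that fell was Tpt1, the translationally controlled tumour protein, with 12451, 12937 and 12303 normalised counts in control and 9537, 9311 and 10030 in 18h-αGal (log2 fold change -0.38, SE 0.10, adjusted p = 0.0342 in edgeR). Its call was lost without control replicates 1 or 2, 18h-αGal replicates 1 or 2, or 72h-αGal replicates 1 or 2. The elongation factor Eef1a1 had -0.33 (SE 0.12, adjusted p = 0.121) and passed without control replicate 3. Npm1, a nucleolar chaperone, had 0.36 (SE 0.21, adjusted p = 0.374). The TOP list had a median of 0.02 at 18 h.

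Of 18 genes for RNA polymerase I and rRNA transcription, 2 were called at 18 h, both higher, against 5.96% of all genes. These were Tcof1, the nucleolar treacle protein (log2 fold change 0.87, SE 0.16, adjusted p = 0.00579 in edgeR), and Taf1d, a subunit of the polymerase I factor SL1 (0.60, SE 0.14, adjusted p = 0.0189). Ncl, the nucleolin gene, had -0.07 (SE 0.24). Of 32 snoRNP and rRNA processing genes, 1 rose, the small-subunit processome gene Noc4l (1.13, SE 0.23, adjusted p = 0.00879 in edgeR). An unadjusted p under 0.05 was found for 11 of these 32, against 20.8% of all genes. Fbl, the rRNA methyltransferase fibrillarin, had 0.34 (SE 0.16, adjusted p = 0.251). The medians of these lists were 0.24 and 0.34. Without 18h-αGal replicate 2 the calls of Taf1d and Noc4l were lost, and without 18h-αGal replicate 3 Fbl and Npm1 passed. Of 39 subunit assembly genes, 0 were called at 18 h in edgeR (7 at an unadjusted p under 0.05, 1 called by DESeq2 and 0 by limma-trend), and their median was 0.17.

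Of 32 regulators around mTORC1 and Myc, 1 rose and 4 fell at 18 h, against 3.27% and 2.69% of all genes. Mycn had 282, 409 and 138 normalised counts in control, 31.5, 19.8 and 60.7 in 18h-αGal and 268, 251 and 263 in 72h-αGal. The 18h-αGal libraries lay below all others, with a log2 fold change of -2.94 (SE 0.43, adjusted p = 0.00148 in edgeR). The mTOR inhibitor Deptor (-0.77, SE 0.12, adjusted p = 0.00194) and Sesn1, a stress-inducible inhibitor of mTORC1 (-0.93, SE 0.19, adjusted p = 0.0122), also fell. Max, the dimerisation partner of Myc, rose (0.58, SE 0.15, adjusted p = 0.0324), a call lost without control replicates 1 or 2 or 18h-αGal replicates 2 or 3. That of Sesn1 was lost without 18h-αGal replicate 2. Myc itself had -0.09 (SE 0.30) and Larp1, which binds TOP mRNAs, had 0.33 (SE 0.11, adjusted p = 0.100) and passed without 18h-αGal replicate 3.

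Of 17 genes of the eIF2 and integrated stress response list, 2 rose and 1 fell at 18 h. Of all genes, 3.27% rose and 2.69% fell. Eif2ak2, the interferon-inducible kinase PKR, had 845, 875 and 1353 normalised counts in control and 1993, 1988 and 1963 in 18h-αGal (log2 fold change 0.97, SE 0.16, adjusted p = 0.00285 in edgeR). Eif2s1, the eIF2α subunit it phosphorylates, rose by 0.63 (SE 0.11, adjusted p = 0.00516), and Ppp1r15a, a phosphatase subunit that reverses this step, fell by 0.56 (SE 0.14, adjusted p = 0.0241), which did not pass without control replicates 1 or 2 or 18h-αGal replicates 1 or 2. Of 20 ribosome quality control genes, 1 rose, the ribosome recycling factor Abce1 (0.67, SE 0.12, adjusted p = 0.00546). None of the 4 genes of the p53 axis was called at 18 h by edgeR, DESeq2 or limma-trend, with 1 at an unadjusted p under 0.05 in each.

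At 72 h, 0 of the 267 listed genes tested were called against control in edgeR, and DESeq2 and limma-trend also called 0. In edgeR 15 had an unadjusted p under 0.05, against 5.94% of all genes tested. Between 18h-αGal and 72h-αGal, 37 of 267 were called, against 10.2% of all genes tested. Of these calls, 20 were mitochondrial ribosomal protein genes (20 of 77 tested). Elsewhere, 2 of 28 TOP, 1 of 18 polymerase I, 0 of 32 snoRNP and 2 of 39 assembly genes were called. So were 5 of 32 mTORC1 and Myc, 2 of 20 quality control, 1 of 4 p53 and 4 of 17 eIF2 genes. The p53 axis gene called was Cdkn1a, a p53 target that halts the cell cycle. It had 2155, 2379 and 3236 normalised counts in 18h-αGal and 1165, 1322 and 974 in 72h-αGal. It fell by 1.16 on the log2 scale (SE 0.19, adjusted p = 0.00214 in edgeR).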

How the data were processed

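Per the labels and methods, the authors depleted ribosomal RNA, made directional libraries and mapped 100 bp reads with HISAT2. The methods name GRCm39, and the submitters' processing notes name GRCm38, mm10, featureCounts, Subread and DESeq2 1.42.0. Annotation release, strand and multi-mapping settings were not given in the sources used here, so reads of near-identical or antisense genes may be split or dropped. The deposited raw counts were tested. The deposited normalised signal (counts over 1 factor per library) is printed as normalised counts.

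Identifiers were matched to GENCODE vM39 (28480 of 29288 matched, 808 not). Counts were fitted with edgeR 4.0.16 in R 4.3.3 (filterByExpr, TMM, robust quasi-likelihood over all 9 libraries, 18933 genes), and p-values were adjusted over all of them by the Benjamini-Hochberg method. SE came from the F statistic. Each p-value tests a group difference against a variance between mice whose estimate is shared in part over all genes tested. Alternatives used DESeq2 1.42.0 and limma 3.58.1. A floor of 3 counts was 0.0917 to 0.338 CPM and covers counting error only.

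Members and lists were chosen with earlier results of these data known. Named members are the called ones or the 6 of smallest p per comparison, the 5 highest and 5 lowest levels, well-known members and paralogues, and for each list up to 3 called genes per direction. Lists covered TOP translation genes, polymerase I, snoRNPs, assembly, mTORC1 and Myc, quality control, p53, mitochondrial ribosomal proteins and eIF2. Rps27 was added after its values were seen. A further member that the rule names is not reported here.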

Additional observations from a re-analysis of the deposited data

Results flagged for a closer look

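The changes at 18 h and at 72 h share the control mice, and the test between both αGal groups gives their difference. Among the named genes it passed for 25 (log2 fold change from 18 h to 72 h, edgeR), against 10.2% of all genes tested. A call in this same comparison was a reason for naming many of them, so the count is no separate support. The members were Rps27l (-0.98) and Rpl7l1 (-0.63). Mitochondrial ribosomal protein genes were Mrpl34 (-1.13), Mrpl20 (-0.95), Mrpl16 (-0.88), Mrpl55 (-0.85), Mrpl11 (-0.83) and Mrpl13 (-0.82). Ribosome production genes were Tcof1 (-0.65), Bop1 (-0.65) and, higher at 72 h, Nop53 (0.36). Translation genes were Btf3 (-0.40), Eif4e (-0.47) and Eif4b (0.48). Regulators were Mycn (2.85), Deptor (0.71), Max (-0.62) and Mxi1 (-1.26). Stress and quality control genes were Eif2ak2 (-1.08), Eif2s1 (-0.65), Eif2s3x (-0.49), Ppp1r15a (0.53), Abce1 (-0.72), Edf1 (-0.77) and Cdkn1a (-1.16).

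Some of these calls depended on single libraries. Those of Bop1, Rpl7l1, Btf3 and Edf1 were lost without control replicate 1, 18h-αGal replicates 1 or 2, or 72h-αGal replicates 2 or 3. For Bop1, Btf3 and Rpl7l1 they were also lost without 72h-αGal replicate 1, and for Btf3 and Edf1 without 18h-αGal replicate 3. The calls of Eif2s3x and Tcof1 were lost without 18h-αGal replicates 1 or 2 or 72h-αGal replicates 2 or 3, and that of Max without 18h-αGal replicate 2 or 72h-αGal replicate 3. Ppp1r15a did not pass without 18h-αGal replicates 1 or 2 or 72h-αGal replicates 1 or 3, and Eif4b without 18h-αGal replicates 2 or 3 or 72h-αGal replicates 1 or 3. Eif4e did not pass without control replicate 2, 18h-αGal replicates 1 or 2, or any 72h-αGal library, and Mxi1 without control replicate 1, 18h-αGal replicates 1 or 3, or any 72h-αGal library. Nop53 passed with 1 library left out only where this was control replicate 3. Values without single libraries are not given here for Mrpl13, Mrpl20 and Mrpl55 in this comparison.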

How the results depend on the processing

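The alternatives run kept the sign of each of the 39 called values of named genes, and the medians of the members moved by less than the spread between libraries. At 18 h, 1 member was called with RLE factors, library totals only, no robust estimation, core members only or a replicate block, 4 without a low-count filter, and 0 with only the 6 libraries compared or at an adjusted p under 0.01. Leaving out 1 library gave 0 (without control replicate 1, control replicate 2 or 18h-αGal replicate 2) to 3 members (without control replicate 3). Between 72 h and 18 h, the count was 1 at an adjusted p under 0.01, 0 for core members only, and 1 to 3 with 1 library left out. At 72 h against control it was 0 in every alternative run. Mitochondrial ribosomal protein calls, whose alternatives were added after seeing the data, were at 18 h 7 with the replicate block, 4 with only the libraries compared and 2 to 14 with 1 library left out. Between 72 h and 18 h they were 10 with library totals, 11 with the upper quartile or the replicate block, and 5 to 22 with 1 library left out.

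Replicate numbers are not said to pair mice, so the replicate block is given here only. Correlations of deviations ran from -0.150 to 0.115 for same-numbered mice and from -0.100 to 0.135 for different-numbered mice. Deviations from the mean of a group sum to 0 within it, so these values cannot decide whether mice were paired.

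Uncalled values near 0 changed sign. At 18 h, Rpl13a had -0.0132 with library totals, -0.0474 with the upper quartile and -0.0458 in limma-trend. At 72 h, Rpl11 had -0.00344 with RLE factors, -0.00387 in DESeq2 and -0.0132 in limma-trend, and Rpl5 had 0.043 with library totals, 0.0168 with the upper quartile, 0.00232 without mitochondrial genes, 0.0117 without the filter and 0.00372 with the replicate block. With 1 library left out, the 18 h values ranged from -0.27 to 0.169 for Myc, -0.226 to 0.177 for Ncl, -0.272 to 0.299 for Rpl13a, -0.0154 to 0.237 for Rpl35rt, -0.212 to 0.0248 for Rps19 and -0.131 to 0.0824 for Rps4l. The 72 h values ranged from -0.108 to 0.19 for Rpl11, -0.158 to 0.105 for Rpl5, -0.202 to 0.0332 for Rpl7l1, -0.0794 to 0.108 for Rps19bp1 and -0.154 to 0.0376 for Rps6. The cause was not tested for these, nor for calls lost with fewer libraries.

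With 3 mice a group, the 95% interval of the median member reached 0.30 on the log2 scale to each side at 18 h. Smaller changes were generally not detectable even without adjustment over genes. Larger fitted changes also missed the adjusted threshold in edgeR, such as Rpl22 (-0.40, adjusted p = 0.124) and Rpl35 (0.38, adjusted p = 0.108). An uncalled member may therefore have changed by more than 0.30.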
